A study of Arabidopsis thaliana with 12 samples.

Results

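The plastid iron-sulfur cluster assembly genes, known as the SUF system, were followed in shoots of Arabidopsis thaliana, the model plant thale cress. The 10 genes were taken by their AGI locus identifiers whatever their values, out of 32678 identifiers in the count table. They are NFS2 (AT1G08490), SUFE1 (AT4G26500), SUFB (AT4G04770), SUFC (AT3G10670), SUFD (AT1G32500), SUFA (AT1G10500), NFU1 (AT4G01940), NFU2 (AT5G49940), NFU3 (AT4G25910) and HCF101 (AT3G24430). All 10 were measured in every library, with counts between 245 for NFU3 and 4006 for SUFB, and all 10 passed the filter on low counts.

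Iron-sulfur clusters are small cofactors of iron and sulfide that carry electrons and assist catalysis. In plastids a cysteine desulfurase releases sulfur from cysteine, a scaffold made of SUFB, SUFC and SUFD assembles the cluster, and carrier proteins hand it to client proteins such as photosystem I, ferredoxin and the Rieske protein of the cytochrome b6f complex. Chloroplasts hold most of the iron of a leaf, and iron deficiency is known to lower the abundance of photosynthetic iron-sulfur proteins.

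The libraries came from Col wild type and from clf plants, and the title of the study frames them around the role of Polycomb repressive complex 2 in shoot iron homeostasis. CLF encodes CURLY LEAF, a catalytic subunit of that complex, which places the repressive methyl mark on lysine 27 of histone H3. Seedlings grew on B5 medium for 12 days and then spent 3 days with or without iron, under a daily 16 h light period at 22 °C, so all 4 groups shared the age, the medium before the shift and the light cycle. The groups were iron-sufficient wild type, iron-deficient wild type, iron-sufficient clf and iron-deficient clf, with 3 libraries each. The labels name neither the clf allele nor any pooling of plants. They do not say that replicates were separate cultures, so the p-values reflect spread between libraries that may be technical.

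Library totals ran from 16092041 to 29400813 counts, and every deficient library was deeper than every sufficient one. CLF stood at 13.1 to 17.1 CPM (counts scaled to a common library size) in the 6 wild-type libraries and at 3.09 to 5.40 CPM in the 6 clf libraries, with no overlap (edgeR adjusted p = 0.0024 on sufficient and 0.0013 on deficient iron). The labels name the tissue as shoot in some fields and as root in others. The 8 leaf markers examined were each at 230.4 CPM or more in every library, and the highest of 12 root markers reached 5.88 CPM (CASP1). In each group the library with the highest CPM of TOC1, an evening clock gene, was taken as the 1 that stood apart, called clock-divergent. The rule takes 1 library per group whatever the values. It took replicate 3 for iron-sufficient wild type, replicate 2 for iron-deficient wild type and replicate 3 of both clf groups. By that choice TOC1 was at 30.2 to 59.6 CPM in those 4 libraries and at 9.44 to 13.0 CPM in the other 8. Of the other clock genes examined, PRR5 and FKF1 were also higher in the 4 without overlap. The ranges overlapped for LHY (65.2 to 231 CPM in the 4 and 204 to 443 in the other 8), CCA1 and GI. The comparisons in which SUFB was called, and the counts over gene lists that changed without these libraries, are given with and without them. A gene was called when its Benjamini-Hochberg adjusted p over all tested genes was under 0.05.

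SUFB was the only member called by the main edgeR test, for iron in both genotypes and for clf against wild type on deficient iron. It lies on the minus strand of chromosome 4 from 2427686 to 2429899 (TAIR10.1) and encodes the scaffold subunit on which the nascent cluster is built. In iron-sufficient wild type SUFB was at 181, 172 and 204 CPM in the 3 libraries, and on deficient iron at 37.5, 19.5 and 30.0 CPM. In clf it was at 211, 233 and 169 CPM on sufficient iron and at 91.0, 76.6 and 40.3 CPM on deficient iron. Every deficient library was below every sufficient library of either genotype, and every deficient clf library was above every deficient wild-type library, the nearest pair being 40.3 and 37.5 CPM.

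In wild type, SUFB fell 6.40-fold under iron deficiency, a log2 fold change of -2.68 (SE 0.31, 95% interval -3.36 to -1.99, edgeR adjusted p = 0.00061, lower in 3 of 3 libraries). It was the 1 of 10 members called, where 9.12% of the 19148 genes tested were called, 4.52% lower and 4.61% higher. The call held in 23 of 23 alternative settings, with log2 fold changes from -2.91 to -2.39. In bulk tissue, fewer cells of a type and less RNA per cell cannot be told apart. The 8 leaf markers together made up 8.67% to 9.72% of counts in iron-sufficient wild type and 5.54% to 5.87% on deficient iron, and 2 of the 8 (LHCB1.3 and CA1) were called lower. Their part in the fall of SUFB was not tested.

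In clf, SUFB fell 2.95-fold under iron deficiency, a log2 fold change of -1.56 (SE 0.30, 95% interval -2.22 to -0.90, edgeR adjusted p = 0.031). It was again the 1 of 10 members called, beside 1.52% of all genes tested, 0.768% lower and 0.752% higher. The call depended on single libraries: it was lost in 7 of 12 fits that left out 1 library, with edgeR adjusted p up to 0.12 when replicate 2 of iron-sufficient clf was left out, while the log2 fold change stayed between -1.80 and -1.29. The 7 libraries were replicates 1 and 2 of iron-sufficient wild type, replicate 3 of iron-deficient wild type, all 3 of iron-sufficient clf and replicate 2 of iron-deficient clf. In iron-sufficient wild type and both clf groups, libraries with the same replicate number deviated together from their group means. Replicates 1 and 2 also did so across numbers, and replicate 3 was the clock-divergent library in each. With a term for replicate number (a replicate block) in these 3 paired groups, the log2 fold change of SUFB was -1.60 (edgeR adjusted p = 0.011), where 7.22% of all genes were called. The leaf markers made up 6.87% to 7.71% of counts in iron-sufficient clf and 4.73% to 5.79% on deficient iron, and 1 of the 8 (CA1) was called lower. The 12 root markers summed to 6.43 to 18.5 CPM in iron-sufficient clf and 1.95 to 6.82 CPM on deficient iron, where 8 of the 9 tested had negative log2 fold changes (median -1.28), 4 at an unadjusted p under 0.05 and 0 called. The part of either marker list was likewise not tested.

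Between genotypes on sufficient iron, SUFB did not pass the test, with a log2 difference of 0.14 (95% interval -0.50 to 0.78, edgeR adjusted p = 0.84), clf minus wild type. On deficient iron SUFB was 2.39-fold higher in clf, a log2 difference of 1.26 (SE 0.30, 95% interval 0.60 to 1.91, edgeR adjusted p = 0.031). It was the 1 of 10 members called there, beside 6.47% of all genes tested, 4.01% higher and 2.46% lower. The call was lost in 4 of 12 fits that left out 1 library, with edgeR adjusted p of 0.083 without replicate 2 and 0.087 without replicate 3 of iron-deficient wild type, and 0.13 without replicate 1 and 0.11 without replicate 2 of iron-deficient clf. The 12 root markers summed to 5.71 to 12.5 CPM in wild type and 1.95 to 6.82 CPM in iron-deficient clf, with 1 of the 9 tested (COBL9) called lower, and their part was not tested.

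The iron response of SUFB was smaller in clf by 1.12 on the log2 scale (SE 0.41, 95% interval 0.20 to 2.03), but this interaction did not pass adjustment over all genes (edgeR unadjusted p = 0.021, adjusted p = 0.62). Across the alternatives its adjusted p ran from 0.057 to 0.86. Of all genes tested, 0.00522% were called for the interaction, and 0 of the 10 members were, with 1 member at an unadjusted p under 0.05, beside 7.4% of all genes, and 0 called by DESeq2. For the interaction all 9 root markers tested were negative (median -1.56), 3 at an unadjusted p under 0.05 and 0 called, and their part was not tested. The 4 comparisons share libraries, so their values for SUFB are not independent of each other.

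Without the 4 libraries that stood apart in clock genes, the log2 fold change of SUFB under deficiency was -2.39 in wild type (edgeR adjusted p = 1.8e-06) and -1.41 in clf (edgeR adjusted p = 0.00023). On deficient iron clf was then higher by 1.31 (edgeR adjusted p = 0.00017). SUFB in the library that stood apart was the highest of its group in iron-sufficient wild type and the lowest of its group in the other 3 groups. The fall in wild type was 10.5-fold between the libraries that stood apart and 5.23-fold between the means of the rest, and in clf 4.19-fold and 2.65-fold. On deficient iron the excess of clf over wild type was 2.07-fold and 2.48-fold in the same order.

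**Figure D1:**
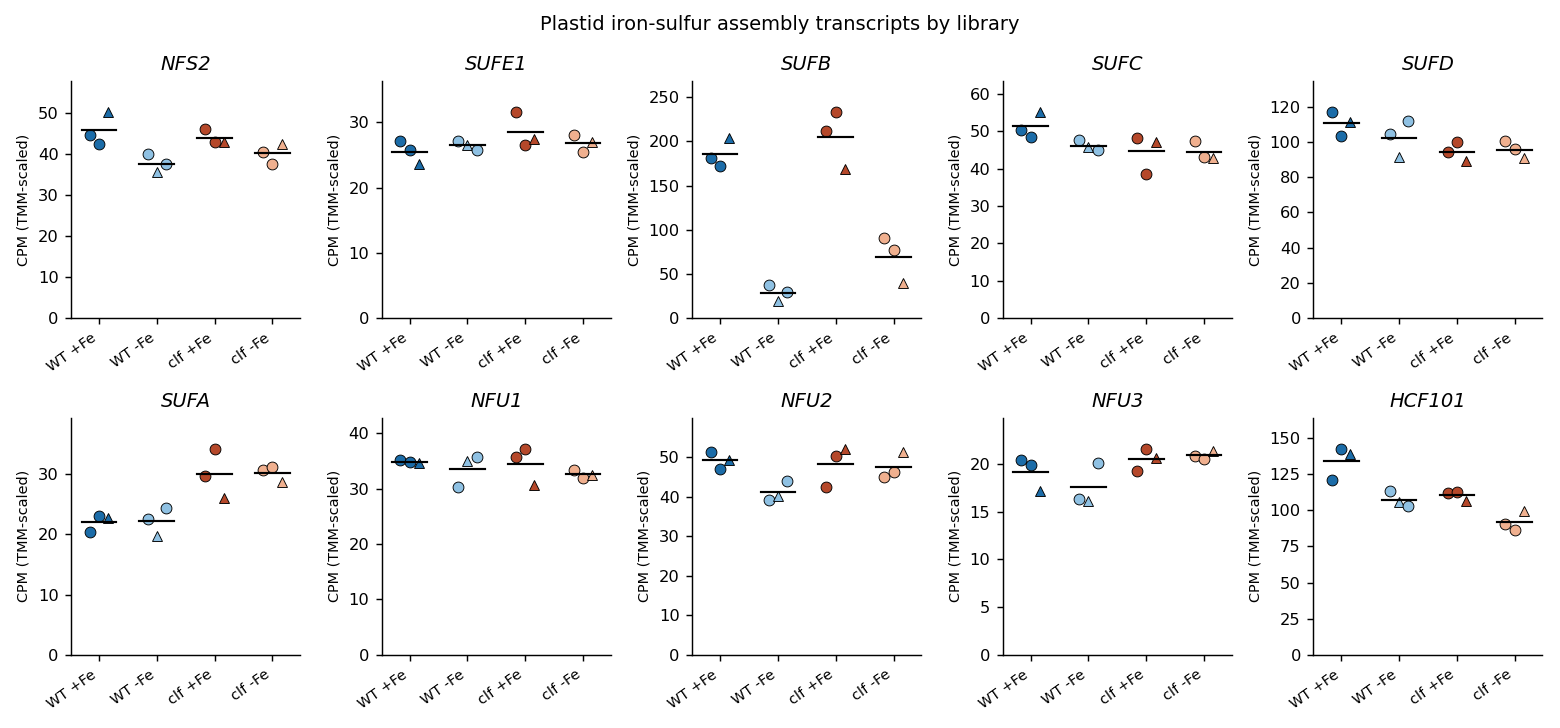
TMM-scaled CPM of each of the 10 genes (vertical axis, starting at 0) in each library of the 4 groups, where +Fe is sufficient and -Fe deficient iron, points are libraries, triangles mark the 4 libraries that stood apart in clock genes and bars are group means. SUFB spans 19.5 to 233 CPM with separate iron groups, and the other 9 span narrower ranges. Among those 9, every clf library of SUFA is above every wild-type library. The groups of HCF101 do not overlap in any of the 4 comparisons.

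SUFC and SUFD, the partners of SUFB in the scaffold, did not pass the test in any comparison. SUFC encodes the ATPase of the scaffold complex. It was at 50.2, 48.5 and 55.1 CPM in iron-sufficient wild type and at 47.5, 45.8 and 45.1 CPM on deficient iron, groups that did not overlap although the log2 fold change was only -0.15 (95% interval -0.38 to 0.08, edgeR adjusted p = 0.42). The clf libraries were at 48.2, 38.5 and 47.0 CPM and at 47.3, 43.0 and 42.9 CPM, groups that overlapped.

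SUFD encodes the subunit related to SUFB that completes the complex. It was at 117, 103 and 111 CPM in iron-sufficient wild type and at 104, 91.3 and 112 CPM on deficient iron. The clf libraries were at 94.2, 100.1 and 89.4 CPM and at 101, 95.8 and 90.8 CPM. The iron groups overlapped in both genotypes, with a log2 fold change of -0.11 in wild type (95% interval -0.33 to 0.11, edgeR adjusted p = 0.57) and 0.02 in clf (edgeR adjusted p = 0.97). For both partners the intervals in wild type exclude a fall of the size seen for SUFB.

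The deposited FPKM values, which divide counts by gene length and library total, allow levels to be set beside each other between genes. The FPKM ratio of SUFB to SUFD was 1.44, 1.55 and 1.71 in iron-sufficient wild type and 0.335, 0.199 and 0.250 on deficient iron. In clf the ratio was 2.09, 2.18 and 1.76 on sufficient iron and 0.844, 0.746 and 0.415 on deficient iron. SUFB was thus the more abundant transcript of the pair in all 6 sufficient libraries and the less abundant in all 6 deficient ones. Of the summed FPKM of the 3 scaffold genes, SUFB made up 49.3% ± 1.47 (SD, n = 3) in iron-sufficient wild type, 14.0% ± 3.31 on deficient iron, and 55.2% ± 4.04 and 28.9% ± 7.45 in clf.

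**Figure D2:**
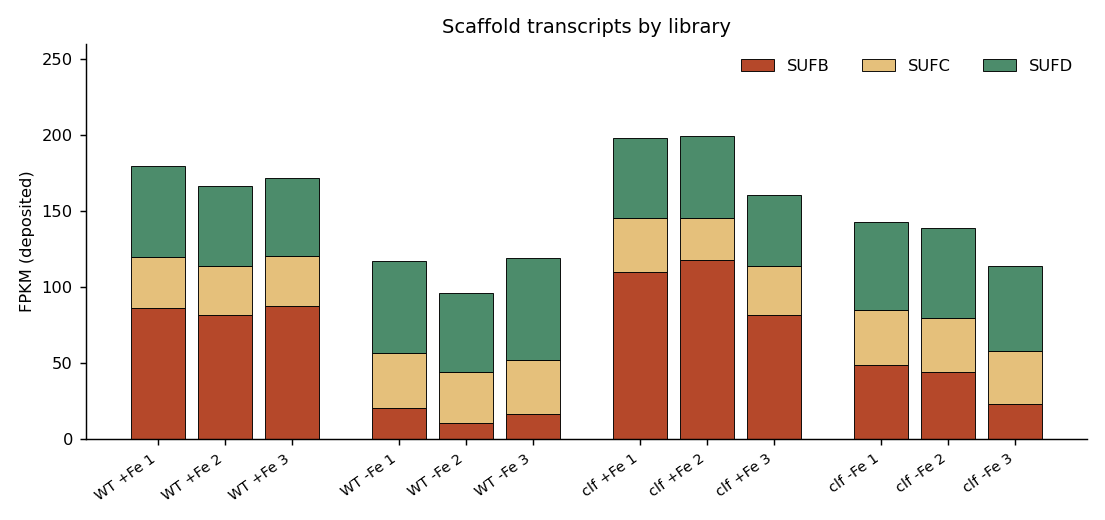
Deposited FPKM of SUFB, SUFC and SUFD stacked for each of the 12 libraries (vertical axis, starting at 0, not TMM-scaled), where +Fe is sufficient and -Fe deficient iron. The SUFB segment shrinks in all 6 deficient libraries, most in wild type, while the SUFC and SUFD segments keep a similar height.

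The stretches before the 3 scaffold genes are shown because their transcripts responded so unequally. Each is the 300 bases upstream of the annotated gene start, 5′ to 3′ on the strand of the gene, from RefSeq on TAIR10.1. SUFB is at chr4:2429900-2430199, SUFC at chr3:3337447-3337746 and SUFD at chr1:11752191-11752490, all on the minus strand, and the SUFC window runs 58 bases into the neighbouring gene AT3G10680. Capitals mark AATATCT, the core of the evening element that clock proteins bind, searched on both strands.
SUFB: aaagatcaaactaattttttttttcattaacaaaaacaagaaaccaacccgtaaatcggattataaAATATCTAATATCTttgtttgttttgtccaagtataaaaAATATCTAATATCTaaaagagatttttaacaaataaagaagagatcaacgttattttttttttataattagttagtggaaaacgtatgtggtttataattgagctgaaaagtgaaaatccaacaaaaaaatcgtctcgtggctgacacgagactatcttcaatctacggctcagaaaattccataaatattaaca
SUFC: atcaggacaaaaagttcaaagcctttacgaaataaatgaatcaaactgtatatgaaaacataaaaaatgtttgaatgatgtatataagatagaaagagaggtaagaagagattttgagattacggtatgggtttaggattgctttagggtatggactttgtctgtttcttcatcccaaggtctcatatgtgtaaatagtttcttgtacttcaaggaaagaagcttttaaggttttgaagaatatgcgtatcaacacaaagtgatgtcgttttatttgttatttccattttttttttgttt
SUFD: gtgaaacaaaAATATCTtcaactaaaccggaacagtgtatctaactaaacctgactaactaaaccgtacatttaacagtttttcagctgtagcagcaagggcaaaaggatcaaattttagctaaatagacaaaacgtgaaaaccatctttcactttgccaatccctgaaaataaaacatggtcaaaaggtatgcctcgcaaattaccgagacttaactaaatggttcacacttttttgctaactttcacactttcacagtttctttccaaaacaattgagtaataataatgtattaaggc

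The SUFB window held AATATCT 4 times, in 2 back-to-back pairs that begin 234, 227, 195 and 188 bases before the gene. SUFD held it once, 290 bases before the gene, NFS2 once, 135 bases before the gene, and the other 7 members not at all. Of the 27443 nuclear protein-coding genes with such a window, 11.8% held at least 1 match. NFU1 alone among the members held CACGTG, the G-box, found in 7.1% of windows, and SUFA alone held AACCCTA, the telobox core, found in 7.6%. GATAAG, the I-box, was in none of the 10 windows and in 14.5% of all. No member held matches to more than 1 of these motifs, so no matches overlapped between motifs. A match is a description of the letters only.

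NFS2 is the cysteine desulfurase that supplies sulfur to the scaffold. It was at 44.6, 42.5 and 50.3 CPM in iron-sufficient wild type and at 40.0, 35.6 and 37.5 CPM on deficient iron. In clf NFS2 was at 46.1, 43.0 and 43.0 CPM and at 40.6, 37.7 and 42.5 CPM. The iron groups did not overlap in either genotype, with a log2 fold change of -0.28 in wild type (SE 0.10, edgeR adjusted p = 0.098) and -0.13 in clf (edgeR adjusted p = 0.60), neither past the threshold. With a term for the 4 clock-divergent libraries, the wild-type value reached an edgeR adjusted p of 0.049. That fit called 21.5% of all genes, beside 9.12% in the main fit. It was the 1 of 23 alternatives in which NFS2 passed for iron in wild type.

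SUFE1 encodes the activator of NFS2. It stayed between 23.6 and 31.6 CPM over all 12 libraries and its groups overlapped in all 4 comparisons, with log2 fold changes of 0.06 in wild type (edgeR adjusted p = 0.79) and -0.09 in clf (edgeR adjusted p = 0.77). Its whole annotated length of 1928 bases is overlapped on the opposite strand by UKL4 (AT4G26510), so if reads were counted without strand its value cannot be told apart from that of UKL4. Among the other members, opposite-strand overlaps were 621 bases for SUFA, 376 and 379 bases with 2 genes for NFU1, 84 bases for SUFB and 44 bases for NFS2.

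HCF101 encodes a carrier required for the clusters of photosystem I. In wild type it was at 121, 142 and 139 CPM on sufficient iron and at 113, 105 and 103 CPM on deficient iron. In clf HCF101 was at 112, 113 and 106 CPM and at 90.1, 86.4 and 99.5 CPM. In TMM-scaled CPM, HCF101 was the 1 member whose groups did not overlap in any of the 4 comparisons. It was lower on deficient iron in both genotypes and lower in clf at both iron levels. None of these passed the edgeR test: the log2 fold changes were -0.32 (SE 0.10, adjusted p = 0.060) and -0.26 (adjusted p = 0.23) for iron in wild type and clf, and -0.28 (adjusted p = 0.13) and -0.22 (adjusted p = 0.23) for clf on sufficient and deficient iron. DESeq2 called the wild-type iron response of HCF101 (adjusted p = 0.018), where 13.9% of all genes were called. So did edgeR with a term for the 4 clock-divergent libraries (adjusted p = 0.023), where 21.5% were called. These were the 2 of 23 alternatives in which that response passed, and the main fit called 9.12% of all genes. By deposited FPKM, the HCF101 groups overlapped in all 4 comparisons. On sufficient and deficient iron they spanned 62.4 to 72.9 and 60.2 to 66.0 FPKM in wild type. The clf groups spanned 55.6 to 62.8 and 52.5 to 61.9 FPKM.

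SUFA encodes an A-type carrier protein. It was at 20.4, 23.1 and 22.7 CPM in iron-sufficient wild type and at 22.5, 19.7 and 24.3 CPM on deficient iron. The clf values of SUFA were 29.7, 34.2 and 26.0 CPM and then 30.7, 31.2 and 28.7 CPM, so every clf library was above every wild-type library. The log2 difference between clf and wild type was 0.44 on sufficient iron (SE 0.12, edgeR adjusted p = 0.067) and 0.45 on deficient iron (SE 0.12, edgeR adjusted p = 0.054), just short of the threshold.

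That result lay close enough to the threshold that settings decided it. On sufficient iron SUFA passed in 7 of 25 alternatives, among them DESeq2 (adjusted p = 0.044). Another was the edgeR fit without the 4 libraries that stood apart (adjusted p = 0.019), where 10.2% of all genes were called. It also passed with the replicate block in the 3 paired groups (0.43, edgeR adjusted p = 0.031), where 12.4% of all genes were called, and not in the same 3 groups without the block (edgeR adjusted p = 0.082). On deficient iron SUFA passed in 5 of 23, with adjusted p = 0.024 by DESeq2 and 0.046 without the 4 libraries that stood apart in edgeR. Those settings called 9.17% and 16.9% of all genes, beside 6.47% in the main fit. Among all genes tested, 4.91% were called for clf against wild type on sufficient iron, 3.59% higher and 1.32% lower, where 0 of the 10 members were called by the main edgeR test, 3 had an unadjusted p under 0.05, beside 18.7% of all genes, and 1 was called by DESeq2, beside 8.16%. In response to iron the log2 fold change of SUFA was 0.01 in both genotypes (edgeR adjusted p = 0.99 and 0.98), with intervals from -0.26 to 0.27 and from -0.25 to 0.28.

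NFU1, NFU2 and NFU3 encode plastid NFU proteins, which receive clusters from the scaffold and pass them on. NFU2 was at 51.3, 47.0 and 49.2 CPM in iron-sufficient wild type and at 39.1, 40.2 and 43.8 CPM on deficient iron, groups that did not overlap. Its log2 fold change of -0.26 did not pass the test (edgeR adjusted p = 0.16). In clf NFU2 was at 42.3, 50.3 and 52.1 CPM and at 45.0, 46.1 and 51.3 CPM, groups that overlapped, with a log2 fold change of -0.02 (edgeR adjusted p = 0.96).

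NFU3 ran from 16.2 to 21.6 CPM and NFU1 from 30.3 to 37.2 CPM over the 12 libraries. On deficient iron both NFU2 and NFU3 were higher in every clf library than in every wild-type library, with log2 differences of 0.21 (edgeR adjusted p = 0.30) and 0.25 (edgeR adjusted p = 0.25) that did not pass. The groups of NFU1 overlapped in all 4 comparisons. Of the summed FPKM of the 3 NFU genes, NFU2 made up between 46.6% and 49.7% as a group mean, NFU1 between 30.8% and 34.8% and NFU3 between 18.0% and 20.2%.

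Over the 9 members other than SUFB, the 95% intervals for the iron response in wild type lay within -0.53 and 0.27 on the log2 scale with TMM factors and within -0.32 and 0.56 with library totals. For iron in clf the bounds were -0.47 and 0.28 with TMM factors and -0.33 and 0.50 with library totals. For clf against wild type the TMM bounds were -0.49 and 0.71 on sufficient iron and -0.43 and 0.71 on deficient iron, and with library totals -0.39 and 0.88, and -0.40 and 0.80. The median log2 fold change of the 10 members was -0.14 in wild type, beside 0.01 for all genes tested, and -0.05 in clf, beside -0.02. Of the 10 members, 8 had negative log2 fold changes in wild type and 7 in clf, beside 49.1% and 52.9% of all genes tested. Scaled by library totals in place of TMM factors, these counts became 4 and 2. That scaling moved the median of all genes to 0.25 in wild type and 0.15 in clf, and of the members to 0.10 and 0.11, and SUFB stayed called lower in both genotypes.

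The groups did not overlap for 5 of 10 members lower under deficiency in wild type (NFS2, SUFB, SUFC, NFU2 and HCF101), where 13.6% of all genes tested were lower without overlap. In clf 3 members (NFS2, SUFB and HCF101) were lower without overlap, where 10.6% of all genes were. In clf against wild type on sufficient iron, SUFC, SUFD and HCF101 were lower without overlap and SUFA higher, against 10.6% and 13.2% of all genes. On deficient iron SUFB, SUFA, NFU2 and NFU3 were higher without overlap and HCF101 lower, against 12.7% and 12.3%. These groups were compared in TMM-scaled CPM. By deposited FPKM, which use library totals, SUFB alone of these members stayed lower without overlap under deficiency, in wild type and in clf. SUFC and SUFE1 were then higher without overlap in wild type, and SUFD and NFU3 in clf. Between genotypes SUFC, SUFD, NFU2 and HCF101 overlapped by FPKM. On sufficient iron SUFA, SUFE1 and NFU3 were higher in clf without overlap by FPKM. On deficient iron SUFB, SUFA and NFU3 stayed higher in clf, and NFS2 and SUFE1 were higher as well. The share of all genes without overlap by FPKM was not counted.

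**Figure D3:**
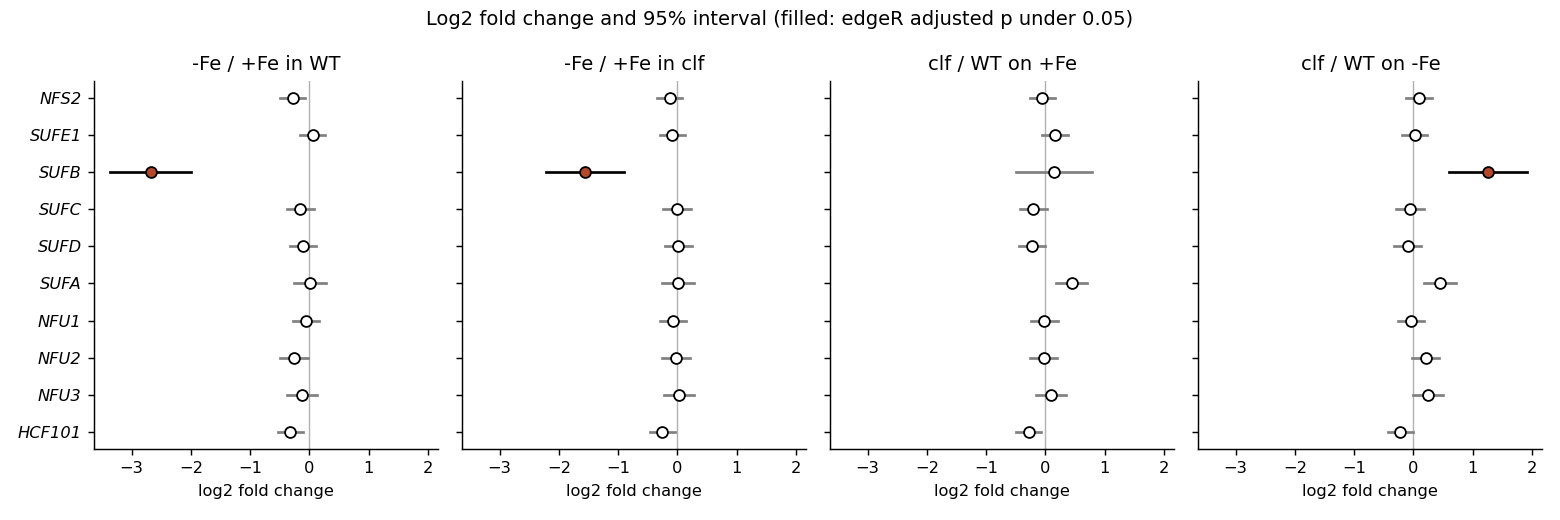
Log2 fold change with 95% interval (horizontal axis) for the 10 genes in the 4 comparisons, where WT is wild type, filled points have an edgeR adjusted p under 0.05 and open points do not. SUFB is filled for both iron responses and for clf against wild type on deficient iron, and the other 9 are open throughout.

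Set beside each other by FPKM, SUFB was the most abundant of the 10 transcripts in both sufficient groups and dropped through the order on deficient iron. In iron-sufficient wild type it stood at 85.0 FPKM ± 3.18 (SD, n = 3), followed by HCF101 at 66.5, SUFD at 54.5 and NFU2 at 46.0, each without overlap with the next. SUFC at 33.1 and NFU1 at 29.8 came next, then SUFA at 23.2 and NFS2 at 23.1, which overlapped, and NFU3 at 16.8 and SUFE1 at 15.8, which overlapped as well. On deficient iron SUFB was last at 15.8 FPKM ± 5.05, overlapping NFU3 at 18.1 and SUFE1 at 19.3, while HCF101 at 62.7 and SUFD at 59.7 led.

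In iron-sufficient clf SUFB was first at 103 FPKM ± 19.0 (SD, n = 3), ahead of HCF101 at 60.0. On deficient iron it stood at 38.9 FPKM ± 13.8 and spanned 23.2 to 49.0. That range overlapped those of SUFA at 38.9, SUFC at 35.2, NFU1 at 34.2, NFS2 at 25.0 and NFU3 at 22.4. SUFB accounted for 21.6% of the summed FPKM of all 10 genes in iron-sufficient wild type, 4.59% on deficient iron, and 24.1% and 10.1% in clf.

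Across the 12 libraries, which share groups and depth, the log2 CPM of SUFB followed that of its scaffold partners weakly, with a Pearson r of 0.22 for SUFC and 0.18 for SUFD, and between SUFC and SUFD r was 0.44. The member most like SUFB was NFS2 at 0.79, the highest of all pairs of members, and SUFC with SUFA was the lowest pair at -0.62. Among all genes tested, the 3 most like SUFB were SAPX (AT4G08390), a stromal ascorbate peroxidase, at 0.994, ENH1 (AT5G17170), a rubredoxin family protein, at 0.991, and AT1G49010, a homeodomain-like protein, at 0.989. SAPX fell by 3.06 on the log2 scale under deficiency in wild type (edgeR adjusted p = 0.00016) and by 1.62 in clf (edgeR adjusted p = 0.017). These genes were picked for their likeness, so their values are a description.

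Beyond the 10 members, 7 further plastid assembly factors, such as glutaredoxins and BolA proteins, were examined. BOLA1, a BolA protein, was the 1 of 7 called for iron in wild type, where 4.52% of all genes were called lower. Its log2 fold change was -0.61 (edgeR adjusted p = 0.024), a call lost in 4 of 12 fits that left out 1 library and under library totals. In clf edgeR called 0 of 7 for iron, with 0 at an unadjusted p under 0.05 and 0 called by DESeq2. SUFE3, the plastid quinolinate synthase with a SUFE domain, was at 24.9, 28.1 and 34.7 CPM in iron-sufficient wild type and at 12.5, 12.9 and 14.8 CPM in clf.

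On deficient iron SUFE3 was at 27.2, 33.1 and 24.1 CPM in wild type and at 10.4, 11.9 and 14.2 CPM in clf. Every clf library was below every wild-type library. Relative to wild type, SUFE3 in clf was at a log2 difference of -1.13 on sufficient iron (SE 0.17, edgeR adjusted p = 0.0046) and -1.21 on deficient iron (SE 0.17, edgeR adjusted p = 0.0029), calls kept in 12 of 12 fits that left out 1 library. In both genotype comparisons it was the 1 of 7 called, beside 1.32% of all genes called lower on sufficient iron and 2.46% on deficient iron.

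Of the 21 genes of the mitochondrial ISC assembly system, 18 were tested, and their median log2 fold change was 0.14 under deficiency in wild type and 0.17 in clf. In wild type edgeR called 2 higher and 1 lower, beside 4.61% and 4.52% of all genes tested. HSCA2, a mitochondrial chaperone, rose by 0.76 (edgeR adjusted p = 0.017) and MFDX1, a mitochondrial ferredoxin, by 1.09 (edgeR adjusted p = 0.024), calls lost in 3 and 4 of 12 fits that left out 1 library. ISCA3 (AT5G03905), an A-type carrier, fell by 1.48 (edgeR adjusted p = 0.0095), a call kept in all 12. Without the 4 clock-divergent libraries 4 were called higher and 1 lower, where 16.9% of all genes were called, and under library totals 5 and 1, where 15.3% were.

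For iron in clf edgeR called 0 of the 18 mitochondrial genes, with 6 at an unadjusted p under 0.05, beside 14.8% of all genes, and 3 called by DESeq2, beside 4.79%. Without the 4 libraries edgeR called 2 higher in clf, beside 8.69% of all genes called, and with the replicate block in the 3 paired groups 1 higher, beside 7.22%. For clf against wild type on sufficient iron edgeR called 1 of 18, HSCA2 (0.66, edgeR adjusted p = 0.045, lost in 10 of 12 fits), where 3.59% of all genes were called higher. DESeq2 called 1 higher and 1 lower there, beside 8.16%, edgeR without the 4 libraries 2 higher, beside 10.2%, among them HSCA2 (0.85, edgeR adjusted p = 0.0016), and edgeR with the block 2 higher, beside 12.4%. On deficient iron edgeR called 0 of 18 between genotypes, DESeq2 1 higher, beside 9.17%, and edgeR without the 4 libraries 3 higher, beside 16.9%.

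Of the 7 genes of the cytosolic CIA pathway, edgeR and DESeq2 called 0 in every comparison, with 0 at an unadjusted p under 0.05, and without the 4 clock-divergent libraries edgeR called 1 of the 7 higher under deficiency in wild type, where 16.9% of all genes were called.

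Among 23 plastid proteins that carry iron-sulfur clusters, 9 fell and 1 rose under deficiency in wild type, beside 4.52% and 4.61% of all genes tested, with a median log2 fold change of -0.46. Of the 9, PAO, a chlorophyll breakdown oxygenase (-0.46, edgeR adjusted p = 0.0496), was lost in 11 of 12 fits that left out 1 library and without the 4 clock-divergent libraries (edgeR adjusted p = 0.11), and GLT1, a glutamate synthase (-0.60, edgeR adjusted p = 0.017), was lost in 3 of 12. Under library totals 7 were called lower and 2 higher, where 15.3% of all genes were called and 85% of those calls were higher. Without the 4 clock-divergent libraries 11 were called lower and 2 higher, where 16.9% of all genes were called. The 1 that rose was APR1, an enzyme of sulfate reduction (1.18, edgeR adjusted p = 0.0091). NEET, an iron-sulfur protein of organelles, was at 42.0, 48.9 and 64.1 CPM in iron-sufficient wild type and at 1.36, 0.944 and 0.999 CPM on deficient iron. In clf NEET was at 63.5, 73.1 and 42.1 CPM and at 9.17, 5.97 and 4.36 CPM. The iron groups of NEET were far apart in both genotypes, with log2 fold changes of -5.54 in wild type (edgeR adjusted p = 9.6e-06) and -3.20 in clf (edgeR adjusted p = 0.00037). FD2, the main leaf ferredoxin, fell by 2.34 in wild type (edgeR adjusted p = 9.0e-05) and by 1.39 in clf (edgeR adjusted p = 0.0074).

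PETC, the Rieske protein, fell by 0.84 in wild type (edgeR adjusted p = 0.0012) and by 0.61 in clf (edgeR adjusted p = 0.022, lost in 3 of 12 fits that left out 1 library). ASE2, an enzyme of purine synthesis, fell by 1.68 in wild type (edgeR adjusted p = 0.0014). In clf NEET, FD2 and PETC were the 3 of 23 called lower and 0 were called higher, beside 0.768% and 0.752% of all genes tested, with a list median of -0.34. In clf DESeq2 called 7 of the 23 lower, beside 4.79% of all genes called, edgeR without the 4 clock-divergent libraries 7 lower and 1 higher, beside 8.69%, and edgeR with the replicate block in the 3 paired groups 11 lower, beside 7.22%.

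For clf against wild type on deficient iron edgeR called 3 of the 23 plastid proteins higher and 0 lower, beside 4.01% and 2.46% of all genes. Without the 4 clock-divergent libraries these became 8 and 1, as the share of all genes called went from 6.47% to 16.9%. On deficient iron NEET was higher in clf than in wild type by 2.55 (edgeR adjusted p = 0.0019), as were PAO by 0.69 (edgeR adjusted p = 0.011) and IIL1, a subunit of isopropylmalate isomerase, by 0.54 (edgeR adjusted p = 0.018, lost in 3 of 12 fits). PAO was also higher in clf when iron was sufficient, by 0.56 (edgeR adjusted p = 0.033, lost in 7 of 12 fits), the 1 of 23 called there, beside 4.91% of all genes. Without the 4 libraries 3 were called higher, beside 10.2%, and with the replicate block in the 3 paired groups 3, beside 12.4%. For the interaction edgeR called 0 genes of these lists, where among the 23 plastid proteins 6 had an unadjusted p under 0.05, beside 7.4% of all genes, DESeq2 called 1 (NEET), beside 0.477%, and edgeR without the 4 libraries called 1, beside 0.508%.

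**Figure D4:**
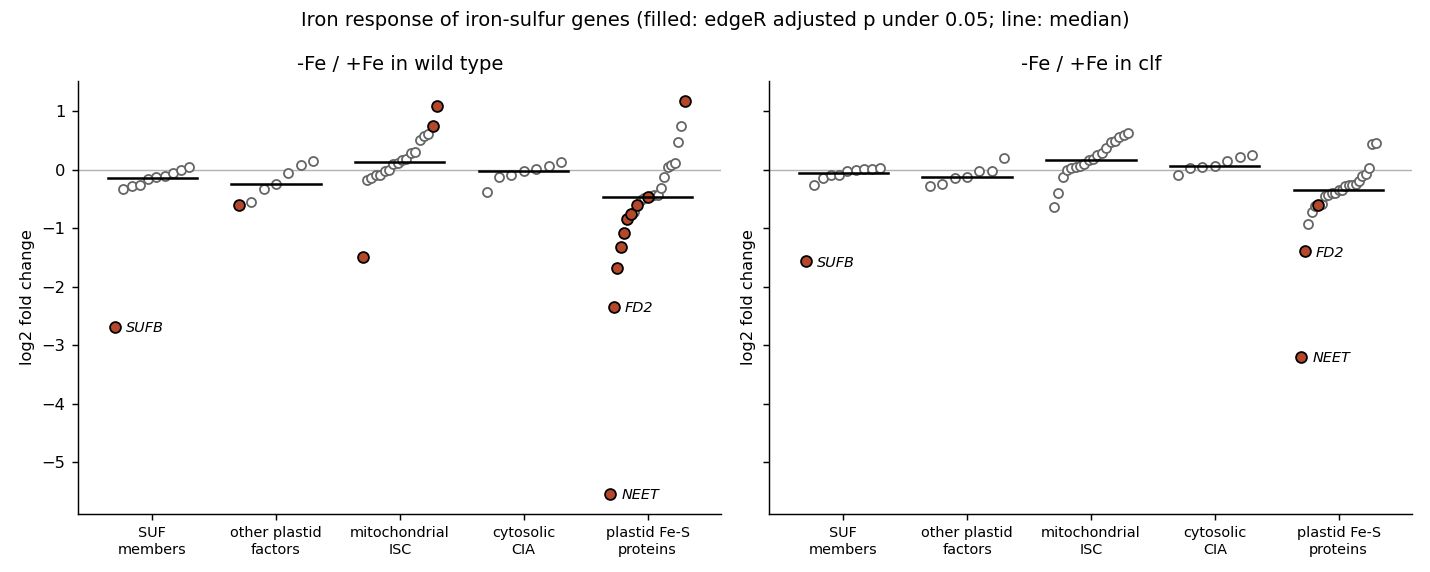
Log2 fold change under iron deficiency (vertical axis) in wild type and in clf for the 10 SUF members and 4 other iron-sulfur lists, where each point is a gene, filled points have an edgeR adjusted p under 0.05 and bars are list medians. SUFB at -2.68 and -1.56 lies far below the other members, and NEET and FD2 are the lowest called genes among the plastid iron-sulfur proteins.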

How the data were processed

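Poly(A) RNA libraries from 12 samples (TruSeq Stranded, per the labels' protocols) were aligned with TopHat2 to TAIR10, per the submitters' processing notes. The counter, annotation and strand setting were not given in the sources used here. Counts, as deposited, are whole reads per gene without normalization, and the FPKM values the authors deposited equal the count divided by length and library total. Names, coordinates and sequences are from RefSeq TAIR10.1, where 31912 of 32678 identifiers were found.

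Genes were filtered with filterByExpr (minimum count 10, total 15), leaving 19148, given TMM factors and modelled in edgeR 4.0.16 (R 4.3.3) with glmQLFit on all 12 libraries (8 residual degrees of freedom, biological coefficient of variation 0.308). Comparisons used glmQLFTest with Benjamini-Hochberg adjustment over all tested genes, called under 0.05. CPM values use TMM-scaled totals. Alternatives used limma 3.58.1 on log2(FPKM + 0.1 or 1) and DESeq2 1.42.0. The fit was also run on simulated counts drawn independently for each library, without clock-divergent libraries, and no result here rests on it.

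The members, gene lists and motifs were chosen with earlier results of these data known. Named were all members, CLF, up to 4 called genes per other list and comparison by adjusted p, and the 3 genes most correlated with a called member; other names were chosen after values were seen. No sample was left out, and no replicates agreed within sampling noise.

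In deviations from group means, all 3 same-number pairs correlated above 0.1 for iron-sufficient wild type with iron-sufficient clf (0.289 to 0.641) and for the 2 clf groups (0.176 to 0.509), and 1 of 3 for each comparison with iron-deficient wild type. Iron-sufficient wild type and both clf groups are called the 3 paired groups here, while the labels give no shared origin. Replicates 1 and 2 also correlated across numbers. Different-number pairs reached 0.381 for iron-sufficient wild type with iron-sufficient clf and 0.267 for the 2 clf groups. In these 3 groups replicate 3 is the clock-divergent library, so pairing by number cannot be told apart from that shared position. A replicate block in these 3 groups, and the same groups without it, were added after seeing the data.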

Additional observations from a re-analysis of the deposited data

How the results depend on the processing

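Of the 10 members, 1 (SUFB) was called for iron in wild type under each alternative except DESeq2 and a term for the 4 clock-divergent libraries. DESeq2 called 2, beside 13.9% of all genes, and the term 3, beside 21.5%. The main fit called 9.12% of all genes there. For iron in clf the 1 call, beside 1.52% of all genes, became 0 when only the compared groups were fitted, beside 0.608%. It also became 0 with limma on log2(FPKM + 0.1) without a filter, beside 1.29%. Leaving out 1 library each gave 1 to 1 calls for iron in wild type and 0 to 1 for iron in clf. For clf against wild type on sufficient iron the 0 calls stood beside 4.91% of all genes. They became 1 (SUFA) under library totals (5.92% of all genes), DESeq2 (8.16%) and limma on log2(FPKM + 1) (6.12%). They also became 1 with the term for the 4 libraries (14.4%) and without those libraries (10.2%). With 1 library left out they ran from 0 to 1. On deficient iron the 1 call, beside 6.47% of all genes, became 0 with only the compared groups (3.28%) and with unfiltered log2(FPKM + 0.1) (3.78%). It became 2 under DESeq2 (9.17%), the term (16.4%) and without the 4 libraries (16.9%). With 1 library left out it ran from 0 to 2. The interaction called 0 members throughout. The cause of these shifts was not tested.

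With the replicate block in all 4 groups, SUFB was at -2.71 in wild type, -1.60 in clf, 0.12 and 1.24 for clf on sufficient and deficient iron, and 1.11 for the interaction, and 1, 1, 0, 1 and 0 members were called, so that block changed no member's call. With the block in the 3 paired groups, SUFB was at -1.60 for iron in clf and 0.11 for clf on sufficient iron, 1 and 1 members were called, and calls over all genes went to 1356 and 2333, against 175 and 867 in the same groups without the block. It changed the call of SUFA (adjusted p = 0.031) and of no other member.

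Over all genes, the 1747 called for iron in wild type ranged from 670 with only the compared groups to 4115 with the term, the 291 for iron in clf from 90 without replicate 2 of iron-sufficient clf to 1741 with the term, the 940 for clf against wild type on sufficient iron from 386 without that library to 2748 with the term, and the 1239 on deficient iron from 504 without replicate 1 of iron-deficient clf to 3220 without the 4 libraries. The 1 interaction call became 97 with the term, 97 without the 4 libraries and 94 with DESeq2. Under library totals the share of calls that were higher went from 50.5% to 85.0%, 49.5% to 79.6%, 73.1% to 88.0% and 62.0% to 75.0% in that order.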

Other observations

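Counting matches per window was decided after the matches were seen: 4 of 27443 upstream windows, or 0.0146%, held AATATCT at least 4 times as the SUFB window did, and 1.02% held it at least 2 times. PRR5, another clock gene, was at 3.04 to 28.2 CPM in the 4 libraries that stood apart and at 0.0899 to 0.947 CPM in the other 8.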
